A study of Rattus norvegicus with 8 samples.

Results

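Genes for protein folding, translocation and quality control in the endoplasmic reticulum (ER), together with the sensors of the unfolded protein response, were examined in the distal colon mucosa of rats fed quercetin, a plant flavonol. The members were 41 genes listed by name, of which 38 had a probe set with that single gene symbol in the platform annotation. No probe set with the single symbol Ern1, Ern2 or Derl3 was found, so these 3 genes are not analysed here. All 38 measured members passed the filter on dim probe sets and were tested among 18625 probe sets. A gene read by more than 1 probe set was represented by the brightest, taken over the mean of all 8 arrays.

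The quercetin group (4 arrays) came from rats fed for 11 weeks on chow that held quercetin at 10 g per kg. The control group (4 arrays) came from rats on the RM3 breeder diet without it for the same time. In both groups the mucosa of the distal colon was scraped off after an ethanol rinse. Total RNA from it was profiled on Affymetrix rat expression arrays. The labels used here name no strain, sex or age and do not state that each array holds a separate rat, so p-values measure only the variation among the 8 samples.

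Proteins that enter the secretory pathway are threaded through the Sec61 channel into the ER, where chaperones of the Hsp70 and Hsp90 classes, the lectins calnexin and calreticulin, and disulfide isomerases fold them. Chains that fail are drawn back into the cytosol and degraded. When unfolded chains accumulate, the sensors IRE1 (Ern1, and Ern2 in mucous epithelium), PERK (Eif2ak3) and ATF6 slow translation and raise the transcription of chaperone and degradation genes. Goblet cells of the colon, which fold and secrete large amounts of the mucin Muc2, depend on this machinery.

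Many promoters of this response carry the ER stress response element (ERSE), in which CCAAT, bound by NF-Y, is followed after 9 free bases by CCACG, bound by ATF6 and XBP1. Promoter windows of 300 bases (250 before to 50 after the start site, RefSeq, GRCr8) were held for 31 of the 41 members. An ERSE on either strand was found in the window of 9 of these 31 members (29.0%), against 22 of 33469 windows in the whole table (0.0657%). The 9 members made up 42.9% of the 21 gene symbols with an ERSE. The members were picked as genes of this pathway, and ERSE was defined on such promoters, so this overlap describes the list and is no independent finding. The elements are shown because they are a sequence feature these promoters share that is rare in the rest of the table, each read on its own strand with the fixed letters in capitals.
Hspa5: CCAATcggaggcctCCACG
Xbp1: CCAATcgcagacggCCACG
Hsp90b1, upstream element: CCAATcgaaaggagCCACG
Hsp90b1, element nearer the start site: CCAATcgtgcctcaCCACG
Dnajc3: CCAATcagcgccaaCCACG
Creld2: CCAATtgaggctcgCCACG
Derl3: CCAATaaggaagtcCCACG
Ero1b: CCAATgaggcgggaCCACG
Canx: CCAATcatcacgctCCACG
Calr: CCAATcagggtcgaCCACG

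A shorter form, ERSE-II (ATTGG, 1 free base, CCACG), lay in the windows of Herpud1, Dnajb11 and Hyou1, 9.68% of the members with a window against 0.0508% of all windows. The XBP1 site UPRE (TGACGTGG) lay in 1 of the 31, Hyou1, against 0.595% of all windows, and there it overlapped the upstream one of its 2 ERSE-II elements. The whole windows of Hspa5 and Herpud1 are printed because these were the 2 members with lower signals and an unadjusted p under 0.05, with the element in capitals. The Hspa5 window lies at chr3:38452766-38453065 on the plus strand, its ERSE from 43 to 25 bases before the start site. The Herpud1 window lies at chr19:10614658-10614957 on the minus strand, its ERSE-II from 124 to 114 bases before the start site.
Hspa5 window: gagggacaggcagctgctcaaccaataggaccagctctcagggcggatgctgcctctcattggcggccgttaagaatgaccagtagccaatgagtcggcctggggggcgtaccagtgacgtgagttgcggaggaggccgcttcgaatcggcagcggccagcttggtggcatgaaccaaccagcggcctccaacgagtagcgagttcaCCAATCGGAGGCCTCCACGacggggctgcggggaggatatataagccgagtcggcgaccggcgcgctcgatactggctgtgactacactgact
Herpud1 window: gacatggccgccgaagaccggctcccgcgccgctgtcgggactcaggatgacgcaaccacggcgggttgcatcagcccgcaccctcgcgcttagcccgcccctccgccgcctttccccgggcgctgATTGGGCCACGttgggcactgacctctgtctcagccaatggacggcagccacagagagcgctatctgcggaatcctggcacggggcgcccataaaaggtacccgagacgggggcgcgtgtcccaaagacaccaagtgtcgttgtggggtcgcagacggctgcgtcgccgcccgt

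**Figure D1:**
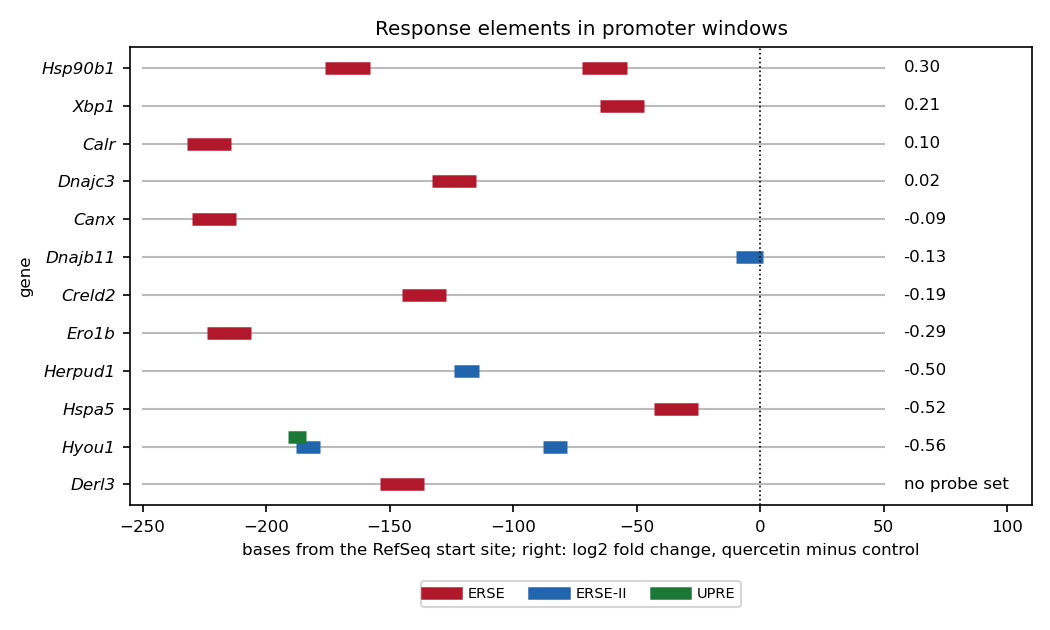
Positions of ERSE, ERSE-II and UPRE matches (coloured bars) in the promoter windows of the 12 members that hold one, in bases from the RefSeq start site (dotted line), ordered by log2 fold change, which is printed at the right. Elements lie on genes with values from -0.56 (Hyou1) to 0.30 (Hsp90b1).

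Members with an ERSE did not share a direction after quercetin. Of the 8 that were measured, 4 had higher and 4 lower signals, with a median log2 fold change of -0.037 and a range from -0.52 (Hspa5) to 0.30 (Hsp90b1). The 21 measured members with a window but no ERSE had 14 higher and 7 lower, a median of 0.031 and a range from -0.56 to 0.44. These 21 include the 3 members with ERSE-II, of which Hyou1 set the lower end of the range. The members with ERSE-II had values of -0.56 (Hyou1, SE 0.367), -0.50 (Herpud1, SE 0.186) and -0.13 (Dnajb11, SE 0.167). Of these, Dnajb11 was 0.0048 without control array 2, and Hyou1 was -0.22 without quercetin array 4 and 0.0035 on its other probe set, so the 3 had no stable shared direction. Fold changes here and below are quercetin minus control on the log2(signal + 16) scale.

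The ER genes had no shared direction. In the limma fit across all probe sets 0 of the 38 members passed the adjusted threshold of 0.05, and 0.0107% of all probe sets did (2 of 18625). At an unadjusted p under 0.05 there were 4 members, Pdia3 and Eif2ak3 higher and Hspa5 and Herpud1 lower. That is 10.5% of the members against 10.8% of all probe sets tested (5.04% higher and 5.71% lower). The groups did not overlap in 4 members, 3 higher (Pdia3, Eif2ak3, P4hb) and 1 lower (Hspa5), which is 10.5% against 6.39% of all probe sets (3.09% higher and 3.3% lower). In all, 25 members had higher and 13 lower values, with a median of 0.064, against a median of 0.0085 and 51.3% higher over all probe sets tested. The median of the members was 0.032 without control array 1 and 0.13 without control array 2, the lowest and highest when single arrays were left out. RNA came from whole scrapings, so fewer cells of a type and less RNA per cell cannot be told apart.

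**Figure D2:**
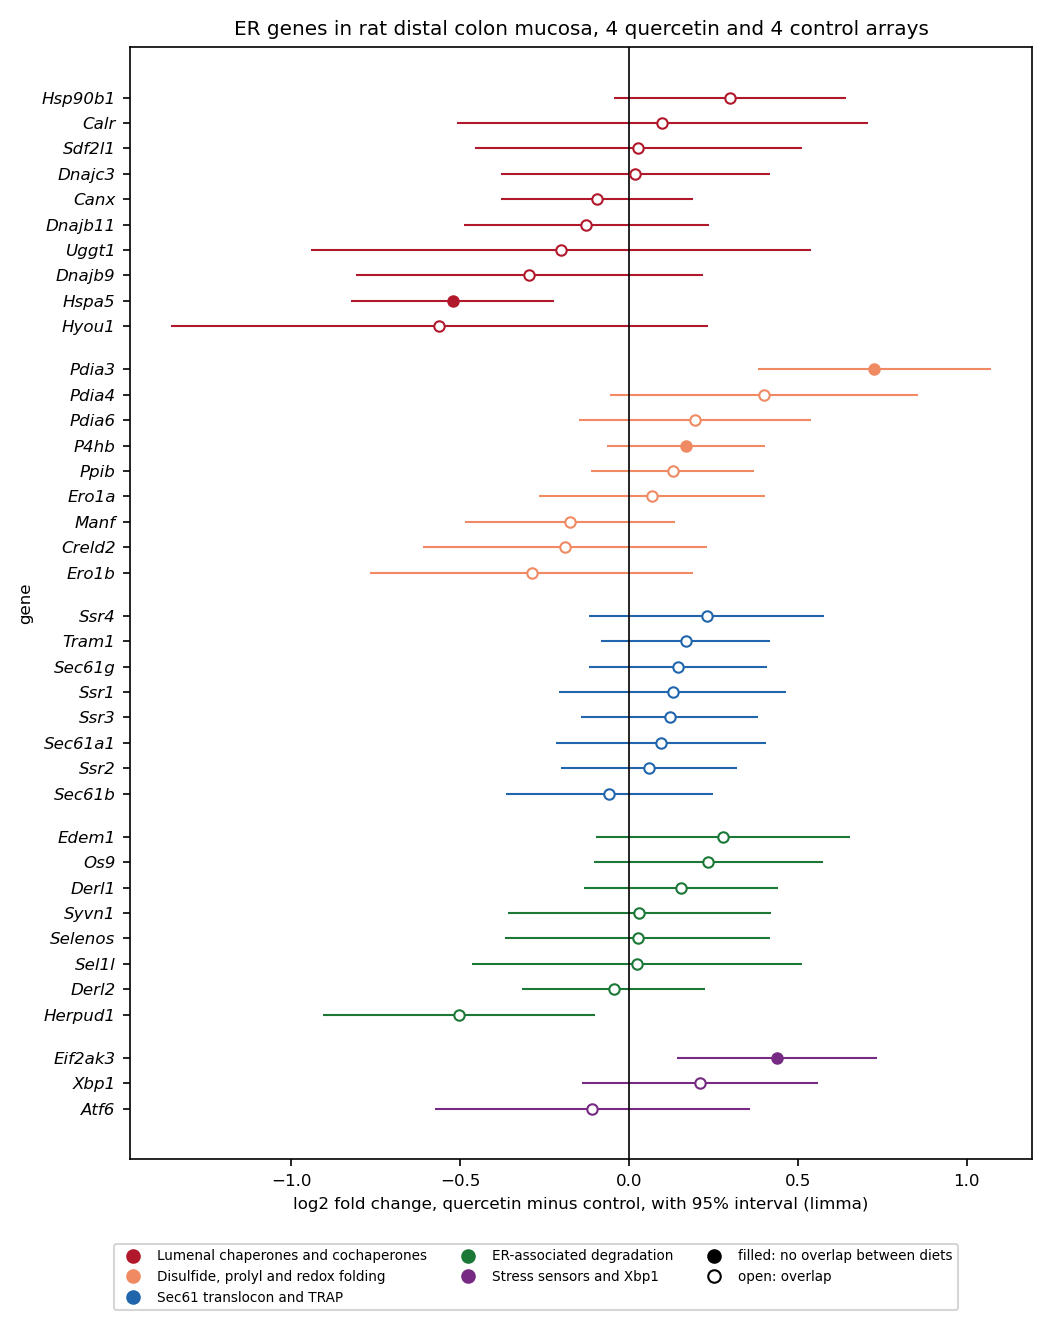
Log2 fold change, quercetin minus control, of the 38 measured members (points) with 95% intervals from limma (lines), grouped by role, with filled points where the 4 quercetin arrays and the 4 control arrays did not overlap. Pdia3 at 0.73 and Eif2ak3 at 0.44 lie right of zero, Hspa5 at -0.52 and Herpud1 at -0.50 left of it, and the intervals of the other 34 members include zero.

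Among the lumenal chaperones, Hspa5, the Hsp70 chaperone BiP that also holds the 3 sensors inactive, had lower signals in quercetin. Its signal was 4325, 3463, 4022 and 3175 on quercetin arrays 1 to 4, against 5349, 6219, 5403 and 4549 on control arrays 1 to 4. Every quercetin array lay below every control array. The mean was 3746 ± 522 in quercetin and 5380 ± 682 in control (SD, n = 4 each). The log2 fold change was -0.52 (SE 0.140, adjusted p = 0.279), or 0.696 times the control level. It lay between -0.60 and -0.41 in all 19 alternatives, with an unadjusted p under 0.05 in each.

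Hsp90b1, the Hsp90 chaperone GRP94 that works beside BiP and carries 2 ERSEs, did not follow it. Its signal was 2236, 2262, 2528 and 2267 on the quercetin arrays, against 1387, 1789, 2109 and 2389 on the control arrays. The groups overlapped through control array 4, and the log2 fold change of 0.30 (SE 0.159, adjusted p = 0.530) was 0.047 without control arrays 1 and 2. Of the BiP partners, Hyou1, its nucleotide exchange factor, had -0.56 with an SE of 0.367 and mean signals of 30.4 and 49.0 in quercetin and control, near the lowest tested level of 29.4. That value rested on quercetin array 4, with a signal of 5.18 against 33.9 to 47.1 on the other quercetin arrays, and was -0.22 without it. The J-domain proteins that hand clients to BiP had -0.29 (Dnajb9), -0.13 (Dnajb11) and 0.020 (Dnajc3), and Sdf2l1, a partner of Dnajb11, had 0.028.

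The lectin chaperones and the glucosyltransferase that returns unfolded glycoproteins to them showed no shared direction. Calr (calreticulin) had 0.099 (SE 0.281) and the widest spread of any member among quercetin arrays, with signals of 1605, 2214, 685 and 1750, against 1116, 1454, 1255 and 1594 on the control arrays. Canx (calnexin) had -0.094 on its brightest probe set and 0.018 and 0.78 on the other 2. On the dimmest, signals were 197, 194, 133 and 265 in quercetin, against 107, 63.1, 91.7 and 188 in control (SE 0.279, adjusted p = 0.349), with the groups overlapping. Uggt1 had -0.20 (SE 0.342) at mean signals of 41.3 in quercetin and 48.8 in control. In this role group 4 of 10 members were higher and 6 lower, with a median of -0.11.

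The enzymes that form and reshuffle disulfide bonds held the member with the smallest p. Pdia3 (ERp57), the isomerase that works with calnexin and calreticulin on glycoproteins, had signals of 7903, 6435, 7716 and 6931 on quercetin arrays 1 to 4, against 3429, 3766, 5515 and 5056 on control arrays 1 to 4. Every quercetin array was above every control array, and control arrays 1 and 2 were the lowest. The mean was 7246 ± 686 in quercetin and 4442 ± 1002 in control (SD, n = 4 each), a log2 fold change of 0.73 (SE 0.160, adjusted p = 0.245) or 1.66 times the control level. Without control arrays 1 and 2 it was 0.45.

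The dimmer probe set of Pdia3 had a negative value, with 118, 57.2, 115 and 128 on the quercetin arrays, against 91.5, 227, 147 and 129 on the control arrays (log2 fold change -0.44, SE 0.279, adjusted p = 0.618). These groups overlapped. When the 2 probe sets were averaged, the value for Pdia3 was 0.15 and its unadjusted p was 0.436. The stretch of the transcript that each probe set reads was not analysed here.

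P4hb (protein disulfide isomerase, also a subunit of collagen prolyl hydroxylase) varied little, with 6731, 7163, 6925 and 6834 on the quercetin arrays, against 5826, 6146, 6011 and 6629 on the control arrays. The groups did not overlap, though the log2 fold change was small (0.17, SE 0.108, adjusted p = 0.618). Pdia4 (ERp72) had 0.40 (SE 0.211) and Pdia6 (P5) 0.20 (SE 0.159), with overlap, and both were lowest on control array 1. Without control arrays 1 and 2, Pdia4 was 0.091 and Pdia6 0.050, and Pdia6 was 0.052 without control array 1 alone. The oxidases that recharge these enzymes had 0.068 (Ero1a) and -0.29 (Ero1b), and Ppib, the prolyl isomerase cyclophilin B, had 0.13. The dimmer probe set of Ero1a had 0.45 (SE 0.332). Manf and Creld2, ER proteins induced by stress and in part secreted, had -0.17 (SE 0.144) and -0.19 (SE 0.195). Of the 9 genes of this group 6 were higher and 3 lower, with a median of 0.13.

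**Figure D3:**
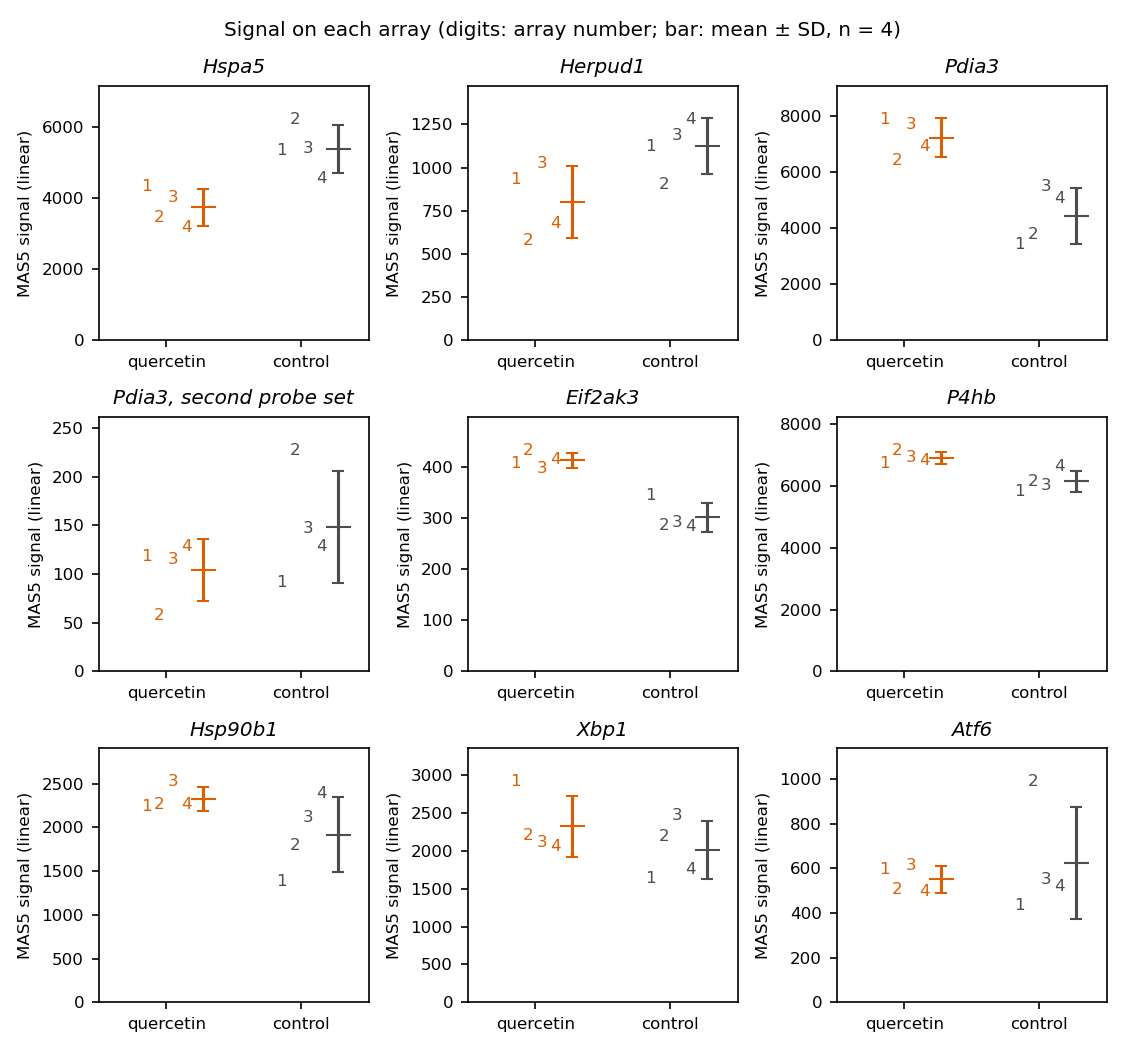
MAS5 signal (linear scale from 0) of 8 members on each array, with quercetin left and control right, digits giving the array number and bars the mean ± SD of 4 arrays. Pdia3 appears with both of its probe sets, whose means lie on opposite sides (7246 in quercetin and 4442 in control on the brightest, 104 in quercetin and 149 in control on the other).

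The subunits of the Sec61 channel and of the TRAP complex that sits beside it had small positive values. Together with Tram1, described below, they made a group of 8 genes, 7 of them higher and 1, Sec61b, lower (-0.058). On the brightest probe set of each gene the median was 0.13, and 0 had an unadjusted p under 0.05. The values of the TRAP subunits were 0.13 (Ssr1), 0.061 (Ssr2), 0.12 (Ssr3) and 0.23 (Ssr4), and those of the channel subunits 0.094 (Sec61a1) and 0.15 (Sec61g). Other tested probe sets had -0.10 and 0.049 for Ssr3, 0.21 for Ssr1 and 0.063 for Sec61a1. With the mean of its probe sets Ssr3 was 0.022. Single arrays moved several of these: Ssr1 was 0.010 and Ssr4 0.11 without control array 2, Ssr2 was 0.0024 without quercetin array 4, Ssr3 was 0.051 and Sec61g 0.085 without quercetin array 1, and Sec61a1 was -0.020 without control array 1. Without both control arrays 1 and 2, Ssr4 was 0.024. The 95% intervals of the group reached at most 0.347 to either side, and the groups overlapped for every one. Tram1, a membrane protein that helps chains enter, had 0.17 (SE 0.115) on its brightest probe set. On its other probe set, signals were 144, 35.2, 59.3 and 60.8 in quercetin, against 218, 59.2, 160 and 172 in control. The log2 fold change there was -0.90 (SE 0.380, unadjusted p = 0.0335 in limma, adjusted p = 0.423).

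Among the genes of ER-associated degradation, Herpud1, a membrane protein that assembles the degradation complex and is strongly induced by ER stress, had lower values in quercetin. Its signal was 929, 579, 1024 and 674 on quercetin arrays 1 to 4, against 1121, 900, 1188 and 1280 on control arrays 1 to 4. Quercetin arrays 2 and 4 lay below all others, while arrays 1 and 3 lay above control array 2. The mean was 802 ± 209 in quercetin and 1122 ± 162 in control (SD, n = 4 each), a log2 fold change of -0.50 (SE 0.186, adjusted p = 0.365). Its unadjusted p stayed under 0.05 in 15 of 19 alternatives and was highest, at 0.0703, without quercetin array 2.

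The ubiquitin ligase Syvn1 (HRD1) and its partner Sel1l, which form the core of the retrotranslocation complex, had 0.031 (SE 0.180) and 0.024 (SE 0.226). The mannosidase-like Edem1, which marks misfolded glycoproteins, had 0.28 (SE 0.175), and its other 2 probe sets had 0.035 and 0.37. Os9, the lectin that reads this mark, had 0.23 (SE 0.157). The derlins had 0.15 (Derl1) and -0.045 (Derl2), and Selenos, a selenoprotein that recruits the extraction ATPase, had 0.026. Other probe sets had 0.20 and 0.22 for Derl1 and 0.18 (SE 0.178) for Derl2. Of the 8 measured genes 6 were higher and 2 lower, with a median of 0.028.

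Of the stress sensors, Eif2ak3 (PERK), the kinase that slows translation, had signals of 407, 433, 397 and 416 on the quercetin arrays, against 345, 285, 292 and 284 on the control arrays. Every quercetin array lay above every control array, and control array 1 stood above the other 3. The mean was 413 ± 15.3 in quercetin and 301 ± 29.0 in control (SD, n = 4 each), a log2 fold change of 0.44 (SE 0.137, adjusted p = 0.307). It lay between 0.39 and 0.50 in all 19 alternatives, with an unadjusted p under 0.05 in each.

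Atf6, the sensor that is cleaved into a transcription factor, had 596, 504, 611 and 495 on the quercetin arrays, against 434, 990, 552 and 518 on the control arrays. The control range enclosed the quercetin range, with control array 2 highest, and the log2 fold change was -0.11 (SE 0.216, adjusted p = 0.899), or 0.13 without control array 2. The dimmer probe set of Atf6 had -0.34 (SE 0.325) at mean signals of 38.4 in quercetin and 49.2 in control. Xbp1, whose mRNA IRE1 splices to make a transcription factor, had 2915, 2199, 2106 and 2055 on the quercetin arrays, against 1628, 2188, 2459 and 1755 on the control arrays. Only quercetin array 1 lay above the control range, and the log2 fold change was 0.21 (SE 0.162, adjusted p = 0.683). Splicing of Xbp1 is not analysed here.

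**Figure D4:**
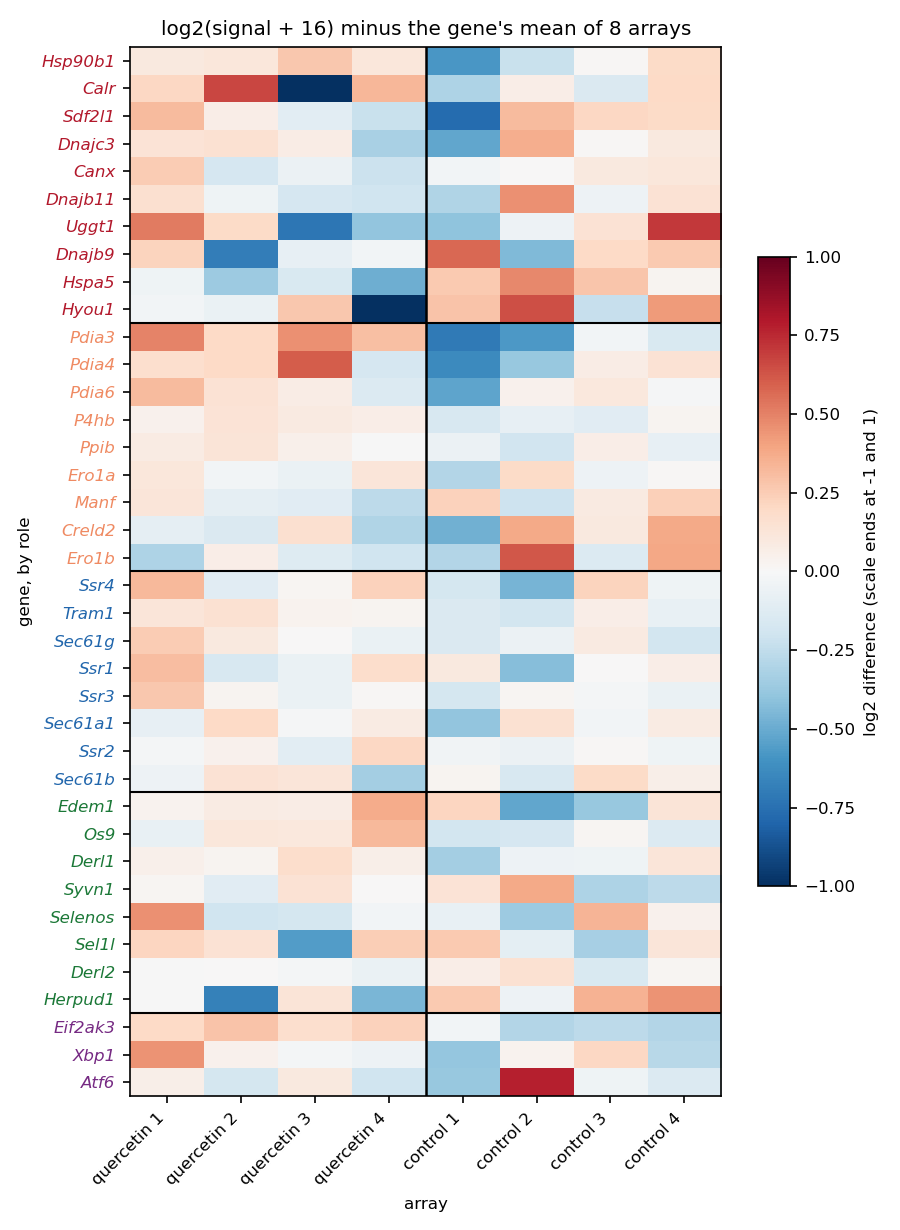
Log2(signal + 16) of each member minus its own mean over the 8 arrays (red above, blue below, colour scale ending at -1 and 1), with quercetin arrays left of the line and control arrays right, and genes grouped by role. Blue cells of control array 1 run through many folding genes, and that array held the lowest value of 16 of the 38 members.

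The arrays differed among themselves in these genes. Control array 1 held the lowest value of 16 members and control array 2 of 6, against 1 to 5 on the quercetin arrays and 2 on each of the other control arrays. Quercetin array 1 held the highest value of 10 members and control array 2 of 9. Between arrays of a diet the median SD over the members was 0.164 in quercetin and 0.251 in control on the log2 scale, against 0.259 and 0.303 over all probe sets tested. Among quercetin arrays the SD ran from 0.031 (Derl2) to 0.73 (Calr), and among control arrays from 0.031 (Ssr2) to 0.51 (Sdf2l1). Control arrays 1 and 2 also correlated least with the rest over all tested probe sets (means of 0.941 and 0.927, against 0.943 to 0.955). The 3' to 5' ratio of beta-actin was 7.18, 8.90, 9.12 and 6.79 on quercetin arrays 1 to 4. On control arrays 1 to 4 it was 8.65, 21.4, 10.2 and 12.4, so it tended to be higher in control. For GAPDH the ratio was lowest on control array 1 (1.58) and highest on control array 2 (3.79). The part of RNA quality in the values of the ER genes was not tested. Without both control arrays 1 and 2 the unadjusted p was under 0.05 for 4 members, and the groups did not overlap in 6. With fewer arrays groups part more easily, so the 6 cannot be read as a gain over the count with all arrays. Shares over all probe sets were not counted without these arrays, so neither count has a background to set it against.

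Genes of the same pathway outside the 38 members were counted from lists of their own. These lists were chosen with earlier results of these data known, so their shares describe the lists and are no independent finding. None of these genes passed the adjusted threshold in limma. The list of other unfolded protein response factors had 15 of 20 genes lower, a median of -0.12 and 5 lower genes at an unadjusted p under 0.05 (25% of the list, against 5.71% of all probe sets). Trib3, a pseudokinase induced by PERK signalling, had 148, 196, 246 and 195 on the quercetin arrays, against 407, 409, 406 and 360 on the control arrays (log2 fold change -0.97, SE 0.167, adjusted p = 0.160). Ddit3 (CHOP), a transcription factor of prolonged stress, had 214, 240, 258 and 239, against 331, 331, 372 and 367 (-0.53, SE 0.141, adjusted p = 0.279). In both the quercetin arrays all lay below the control arrays.

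Hspa13, a small Hsp70 relative of microsomes, had -0.58 (SE 0.180), and the transcription factors Creb3l2 and Atf3, named after their values were seen, had -0.85 and -0.60. Atf4, the activator of Trib3 and Ddit3, had -0.10 (SE 0.154), and Asns, another of its targets, 0.074. These 2 genes were also named after their values were seen. In the other direction, Mbtps1, the protease that cleaves ATF6, was the 1 gene of the list that was higher at an unadjusted p under 0.05 (0.32, chosen after its value was seen). Without control array 1 the list had 11 of 20 genes lower and a median of -0.041, and without quercetin array 2 its median was -0.057, with 5 lower genes at that p in both. Median centring gave 12 lower, a median of -0.066 and 4 such genes.

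The genes of smallest p in the list of oligosaccharyltransferase and glycan trimming enzymes had positive values. Of 17 genes 11 were higher, with a median of 0.071, and 5 had an unadjusted p under 0.05, all higher (29.4% of the list, against 5.04% of all probe sets). Since this list too was chosen with earlier results known, the share is a description only. Ganab and Prkcsh, the subunits of glucosidase II, which trims the glycan to the form that calnexin and calreticulin hold, had 0.67 (SE 0.195, adjusted p = 0.285) and 0.41 (SE 0.151, adjusted p = 0.364). For Ganab the signals were 267, 311, 279 and 335 on the quercetin arrays, against 128, 186, 174 and 255 on the control arrays, without overlap. Rpn2 and Ddost, subunits of the transferase, had 0.40 and 0.33, and Mogs, glucosidase I, 0.36; Ddost and Mogs were named after their values were seen. The count of 5 was 2 without quercetin array 1 and 3 without control array 1, without quercetin array 2, without quercetin array 4, without both control arrays 1 and 2 or with eBayes without the trend.

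The remaining ER lists had 0 to 2 genes at that p, which is 0% to 11.8% of a list, against 10.8% of all probe sets tested. None of these counts thus stood clear of the share over all probe sets. The direction of 3 of these lists turned when single arrays were left out. Other folding enzymes had 11 higher and 7 lower, a median of 0.052 and 1 gene at an unadjusted p under 0.05, Txndc5, a disulfide isomerase (0.54, SE 0.238). Without control array 1 this list had 8 higher and 10 lower and a median of -0.034, without control array 2 its median was 0.17, and without quercetin array 1 it was 0.0023. Txndc5 was 0.27 without control array 1 and had that p in 10 of 18 alternatives. Other factors of ER-associated degradation had 10 higher and 7 lower with 2 such genes, Erlin1 (0.37) and Edem2 (0.43), both higher. Without quercetin array 1, and likewise with array weights, 7 were higher and 10 lower. Signal recognition and signal peptidase genes had 10 higher and 6 lower with 1, Sec62, a translocation factor (-0.29). The split was 7 higher and 9 lower without control array 2, without quercetin array 1 or with array weights, with 3 lower genes at that p without quercetin array 1. Sec62 had that p in 6 of 18 alternatives. Genes of COPII exit from the ER had 12 higher and 7 lower with 0, and their smallest p belonged to Lman2, a cargo lectin (0.25, SE 0.119). Their median of 0.089 was 0.025 without control arrays 1 and 2. ER calcium genes had 9 higher and 3 lower with 1, Rcn2, a calcium-binding protein of the lumen (0.46, SE 0.196), and with 0 without quercetin array 2.

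**Figure D5:**
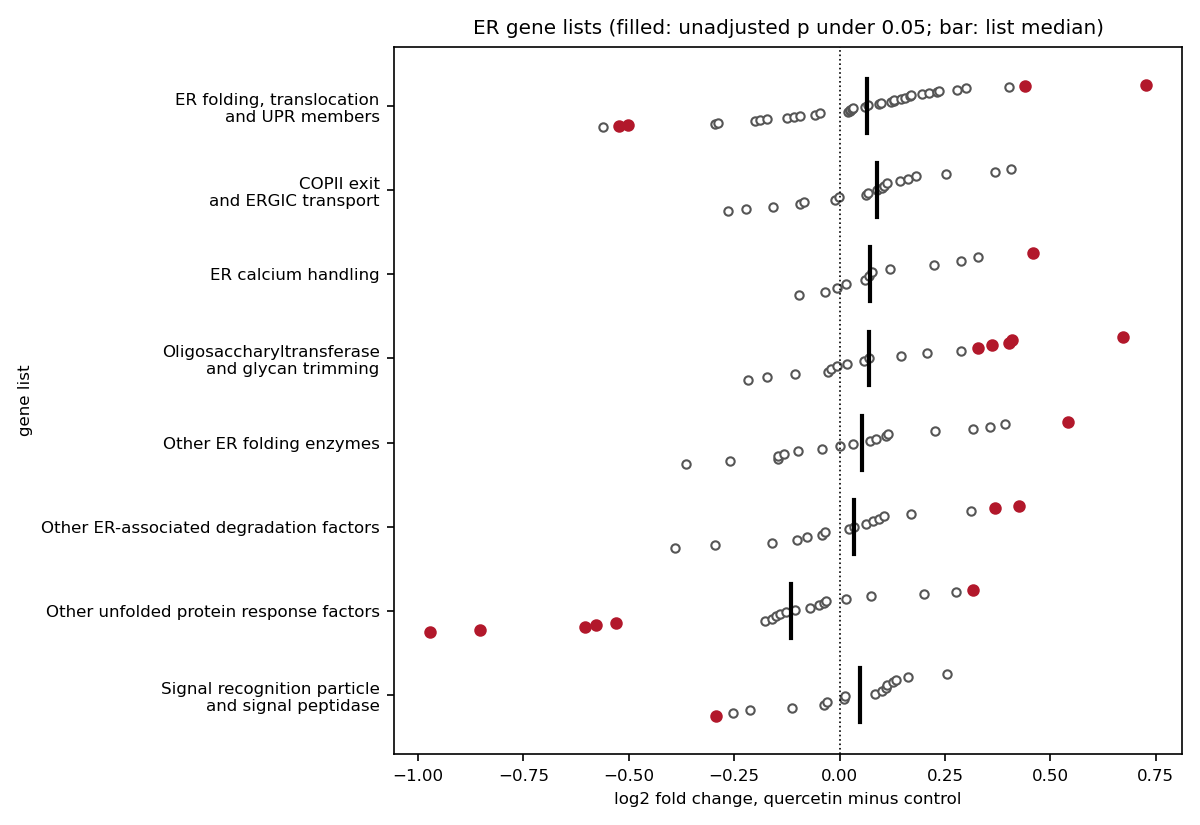
Log2 fold change, quercetin minus control, of each tested gene (points) of the members and of 7 other ER lists, with filled points at an unadjusted p under 0.05 and bars at list medians. Medians run from -0.12 (other unfolded protein response factors) to 0.089 (COPII exit), and 5 filled points lie left of zero in that first list.

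Markers of goblet cells, plasma cells, absorptive colonocytes and enteroendocrine cells were set beside these values. The 11 measured goblet cell markers had a summed signal of 73683 to 86392 on the quercetin arrays and 76103 to 83844 on the control arrays, with 6 higher and 5 lower. Muc2 had -0.21 (SE 0.184), a value chosen after it was seen, and Spink4 had 1.37 (SE 0.477, adjusted p = 0.344). Of 10 plasma cell markers 4 were tested, with summed signals of 1795 to 1928 in quercetin and 1508 to 2019 in control, most of it from Sdc1, which epithelium also expresses. The plasma cell genes Jchain and Mzb1 had mean signals of 34.5 and 36.3 in quercetin and 39.8 and 38.4 in control, near the lowest tested level. Absorptive colonocyte markers, 12 of 12 tested, had summed signals of 71362 to 80272 in quercetin and 58704 to 82897 in control, with 9 higher and 3 lower. Slc9a3 had 0.72 (SE 0.189, adjusted p = 0.273) and Slc16a1 0.43 (SE 0.169, adjusted p = 0.388), both with overlap. Of the 3 lower, Slc26a3 had -0.19. No marker was listed at 0. Of the 7 tested enteroendocrine markers 6 were higher and 1 lower, with Chga at 0.81 (SE 0.281, adjusted p = 0.344). Smooth muscle markers had 5 higher and 2 lower, and fibroblast and matrix markers 1 and 1. T cell markers had 2 higher and 0 lower, and B cell markers 1 and 0. All 4 tested macrophage and dendritic cell markers were higher, with Lyz2 at 0.57 (SE 0.211, adjusted p = 0.363). The part of cell makeup in the values of the ER genes was not tested.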

How the data were processed

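The authors deposited 1 linear intensity per probe set for each array. The submitters' processing notes name MAS5, which scales arrays to a common level; after trimming 2% at both ends the mean was 200.1 on every array. Groups and sample numbers came from the sample titles. The arrays hold 31099 probe sets, and the 57 for hybridisation and labelling controls did not enter the fit. Signals became log2(signal + 16), which understates the change of dim genes, and limma 3.58.1 in R 4.3.3 (lmFit, then eBayes with a trend on the mean) tested the upper 60% by mean, two-sided, with Benjamini-Hochberg adjustment over 18625 probe sets at 0.05. Every adjusted p is from this fit. With 4 arrays a group precision was limited: SEs had a median of 0.222 on the log2 scale, and 95% intervals a median reach of 0.481 to each side. Symbols came from the platform annotation (20826 probe sets with 1 symbol, 436 with several, 9780 with none), promoter sequences from RefSeq (GRCr8).

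Members and lists were chosen with earlier results of these data known. All members are accounted for. Array values are given for members with an unadjusted p under 0.05 or without overlap and for fixed sensors and chaperones. Outside this rule they are also given for Calr and for a dimmer probe set of Canx and of Tram1. Up to 3 genes of the smallest p were named per other list. The steps were tested on simulated data. The 19 alternatives changed the pseudocount (1 or 64), the scaling (quantile, or centring on the median), the filter (none, or the upper 40%), the model (a block for replicate number, no trend, array weights), the choice of probe set (a mean per gene) or the arrays (each left out). The last of the 19, leaving out control arrays 1 and 2 together, was added after seeing the data.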

Additional observations from a re-analysis of the deposited data

Results flagged for a closer look

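In 6 of the 76 groups of 4 arrays (38 members in 2 diets) 1 array stood apart by Dixon's ratio of its gap to the group's whole range, which lay above its 95% critical value. Chance alone gives about 1 in 20 groups. Hsp90b1 was high on quercetin array 3, with 2528 against 2236 to 2267 on the other quercetin arrays (ratio 0.888). Dnajc3 was low on quercetin array 4 (ratio 0.834), and Sel1l on quercetin array 3, with 78.3 against 138 to 149 (ratio 0.871). Edem1 was high on quercetin array 4, with 1589 against 1254 to 1298 (ratio 0.854). In the control group, Sdf2l1 was low on array 1, with 325 against 647 to 705 (ratio 0.888), and Eif2ak3 was high on array 1, with 345 against 284 to 292 (ratio 0.864). Without control array 1 the log2 fold change of Eif2ak3 was 0.50 and that of Sdf2l1 -0.22, against 0.44 and 0.028 with it.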

How the results depend on the processing

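No member passed the adjusted threshold under any of the 19 alternatives. The probe sets past it numbered 2, with 1 at a pseudocount of 1, under quantile normalisation, median centring, no filter or no trend, 1 to 2 when single arrays were left out, and 0 without control arrays 1 and 2 together, which was added after seeing the data. With the replicate number as a block the count was 1; deviations of same-numbered arrays correlated between -0.15 and 0.16, so the numbers were not taken as pairs. The median of the members, 0.064, ran from 0.032 to 0.13 when single arrays were left out and was 0.11 under median centring, 0.032 with a mean of probe sets and 0.038 without control arrays 1 and 2. Members lower at an unadjusted p under 0.05 numbered 1 under median centring, against 2, and 1 to 3 when single arrays were left out. Members higher at that p numbered 1 with a mean of each gene's probe sets, against 2, and 2 to 4 when single arrays were left out. Members without overlap numbered 4 to 9 when single arrays were left out (higher 3 to 6, lower 1 to 3). Groups of fewer arrays part more easily, so a rise in this count says nothing about the members. The shares over all probe sets at an unadjusted p under 0.05 or without overlap were not counted for the alternatives. The lower count of 1 was 0 under median centring and 2 without control arrays 1 and 2.

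Signs turned for 16 members, none of them with an unadjusted p under 0.05 on its brightest probe set in the limma fit of all 8 arrays. Calr, 1 of the 16, had 0.45 with an unadjusted p of 0.0217 in limma without quercetin array 3. Median centring gave Derl2 0.0045. Array weights gave Dnajc3 -0.045, Sdf2l1 -0.10 and Selenos -0.11. The mean of probe sets gave Canx 0.24, Derl2 0.068, Tram1 -0.37 and Os9 -0.075. Without control arrays 1 and 2, Dnajc3 had -0.048, Sdf2l1 -0.19, Atf6 0.037, Derl2 0.043 and Selenos -0.18. Leaving out single arrays turned Dnajc3 (-0.15 to 0.14), Sdf2l1 (-0.22 to 0.14), Sec61a1 (-0.020 to 0.16), Ero1a (-0.019 to 0.14), Dnajb11 (-0.25 to 0.0048), Sel1l (-0.084 to 0.21), Atf6 (-0.25 to 0.13), Selenos (-0.12 to 0.14), Syvn1 (-0.066 to 0.16), Uggt1 (-0.41 to 0.0058), Calr (-0.11 to 0.45) and Sec61b (-0.12 to 0.045). The cause was not tested. Apart from this, signal over background limits the values of dim members such as Hyou1 and Uggt1, whose signals lay near the lowest tested level. The sign of Hyou1 did not turn.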
